A study of Mus musculus with 12 samples.

Results

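The 66 genes described here encode subunits of respiratory chain complexes I to IV of the mitochondrial inner membrane. They were found by symbol among 18193 genes measured in mouse liver: symbols that start with Ndufa, Ndufb, Ndufc, Ndufs or Ndufv and the assembly factors named Ndufaf left aside (complex I, 36 genes), Sdha to Sdhd (complex II, 4 genes), symbols that start with Uqcr together with Cyc1 (complex III, 9 genes), and symbols that start with Cox4i, Cox5, Cox6, Cox7 or Cox8 (complex IV, 17 genes). Each gene was read through 1 probe set, the one with the highest mean over all 12 Affymetrix Mouse Genome 430 2.0 arrays among the probe sets that carry a single symbol. The study asked what silencing of the long noncoding RNA lnc-LFAR1 does to liver fibrosis produced by carbon tetrachloride (CCl4). All mice were male Balb/c animals obtained at 8 weeks of age, and every mouse received a lentivirus by the tail vein. The NC group had oil and the control virus Lenti-NC, NC+CCl4 had CCl4 and Lenti-NC, shLFAR1 had oil and Lenti-shLFAR1, and shLFAR1+CCl4 had CCl4 and Lenti-shLFAR1. CCl4 was given intraperitoneally at 5% in olive oil, 0.3 ml per kg, 3 times a week, with the virus given 2 weeks after the first injection and 4 further weeks of CCl4 after it. The labels describe 10 mice per group, of which 3 per group were arrayed, and the knockdown came from a virus given to the whole animal, so it is not limited to 1 liver cell type. lnc-LFAR1 is not among the named probe sets, and its level was not analysed here.

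Complex I takes electrons from NADH and complex II from succinate, both pass them to coenzyme Q, complex III moves them on to cytochrome c, and complex IV hands them to oxygen. Complexes I, III and IV pump protons, and ATP synthase uses the gradient they build. Mitochondrial DNA encodes a few core subunits of complexes I, III and IV, while all members here are nuclear genes, as are all subunits of complex II. Hepatocytes are rich in mitochondria, which also serve fatty acid oxidation, the urea cycle and gluconeogenesis.

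The promoters of some members are shown first, because the nuclear genes of the respiratory chain are known for shared promoter elements of a few transcription factors: nuclear respiratory factor 1 (NRF1), the ETS family member GABP, also called NRF2, YY1, and the estrogen-related receptors. RefSeq promoter windows (mouse build GRCm38.p6), each of 300 bases with 250 before and 50 after the transcript start, were at hand for 52 of the 66 members. Both strands were searched for GCGCATGC (NRF1), CCGGAAG (ETS), AAGATGGCG (YY1) and AAGGTCA (estrogen-related receptors), and no search string contains another. Shown are the windows of Ndufb5, the called gene with the largest fall after CCl4 and without any of the 4 strings, and of 5 other genes that fell after CCl4 and carry at least 1. Matches are in capitals, and a match describes letters only.
Ndufb5 (chr3:32736813-32737112, plus strand): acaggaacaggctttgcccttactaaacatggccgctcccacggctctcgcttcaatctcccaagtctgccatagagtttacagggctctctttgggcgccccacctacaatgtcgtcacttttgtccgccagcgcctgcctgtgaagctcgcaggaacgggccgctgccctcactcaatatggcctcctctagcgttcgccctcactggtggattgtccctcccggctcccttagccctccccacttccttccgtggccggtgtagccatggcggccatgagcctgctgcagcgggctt
Ndufa9 (chr6:126849095-126849394, minus strand): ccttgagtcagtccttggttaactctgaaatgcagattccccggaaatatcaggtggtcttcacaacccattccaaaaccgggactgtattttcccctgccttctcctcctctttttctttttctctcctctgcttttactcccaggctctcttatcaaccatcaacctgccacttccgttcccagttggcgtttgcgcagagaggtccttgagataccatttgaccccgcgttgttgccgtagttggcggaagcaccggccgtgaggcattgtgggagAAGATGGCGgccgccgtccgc
Ndufb6 (chr4:40279372-40279671, minus strand): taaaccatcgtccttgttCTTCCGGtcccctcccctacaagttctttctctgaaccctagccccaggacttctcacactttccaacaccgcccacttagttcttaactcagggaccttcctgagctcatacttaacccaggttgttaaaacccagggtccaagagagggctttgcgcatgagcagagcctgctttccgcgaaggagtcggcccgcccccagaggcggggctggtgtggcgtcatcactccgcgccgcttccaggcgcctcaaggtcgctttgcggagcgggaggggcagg
Ndufs3 (chr2:90904672-90904971, minus strand): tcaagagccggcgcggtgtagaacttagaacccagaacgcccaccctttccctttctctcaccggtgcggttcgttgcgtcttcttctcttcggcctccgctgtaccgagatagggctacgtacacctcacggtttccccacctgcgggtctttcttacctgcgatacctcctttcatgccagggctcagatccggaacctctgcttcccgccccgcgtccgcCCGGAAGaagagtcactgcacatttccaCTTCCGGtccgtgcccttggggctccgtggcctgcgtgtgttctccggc
Sdhb (chr4:140961021-140961320, plus strand): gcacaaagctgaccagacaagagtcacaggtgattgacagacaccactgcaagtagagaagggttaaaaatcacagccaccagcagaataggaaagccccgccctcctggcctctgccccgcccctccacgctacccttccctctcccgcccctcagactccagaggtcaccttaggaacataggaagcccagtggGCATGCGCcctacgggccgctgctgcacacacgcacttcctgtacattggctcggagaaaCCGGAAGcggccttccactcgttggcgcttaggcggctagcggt
Uqcrc1 (chr9:108936398-108936697, plus strand): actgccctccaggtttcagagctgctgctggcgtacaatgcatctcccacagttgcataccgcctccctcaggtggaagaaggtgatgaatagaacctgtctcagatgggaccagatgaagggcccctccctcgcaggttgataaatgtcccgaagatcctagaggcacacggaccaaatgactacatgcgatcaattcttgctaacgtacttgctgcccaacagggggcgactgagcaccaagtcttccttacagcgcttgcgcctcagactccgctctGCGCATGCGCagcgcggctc

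In these windows Ndufa9 holds the YY1 string, Ndufb6 and Ndufs3 the ETS string, Uqcrc1 the NRF1 string on both strands at overlapping places, and Sdhb both the NRF1 and the ETS string. The NRF1 string was in the windows of 6 of the 52 members (11.5%) and of 3.05% of all 27025 genes with a window. For the ETS string the counts were 11 of 52 (21.2%) and 9.93%, for the YY1 string 4 of 52 (7.69%) and 1.64%, and for the receptor string 4 of 52 (7.69%) and 5.38%. At least 1 of the 4 strings was in 21 of 52 members' windows (40.4%) and in 18.4% of all genes' windows. Members' windows had a median G and C content of 58.7%, against 52.7% for all genes. Among the 14 members with a window that fell after CCl4, 6 held a string, and among the other 38 members with a window, 15 did, shares of 42.9% and 39.5%.

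The values are log2 probe set levels, and differences between groups are log2 differences, so that −0.32 is a fall to about 80% of the control level. Probe sets differ in brightness at equal RNA, so levels of different genes are not set against each other, and a place above or below the median gene is a coarse description. Of the 66 members, 57 had a mean level above the median gene (5.59) and 9 below it: Ndufb4, Cox7c, Cox7b2, Cox8b, Cox6b2, Cox7a1, Cox4i2, Cox6a2 and Ndufa4l2. The place of Ndufb4 comes from its single-symbol probe set (mean 2.99). Probe sets that it shares with Ndufb4b and Ndufb4c, left out by the choice of single symbols, had means of 11.02 and 10.99. A gene was called where the adjusted p of the limma fit over all genes was under 0.05.

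As a check of the tissue, which is coarse for the same reason, 9 of 9 hepatocyte markers lay above the median gene and all 6 skeletal muscle markers below it. The array NC+CCl4 replicate 1 stood apart by a difference of 1.31 between its 3′ and 5′ beta-actin probe sets, against 0.704 to 1.07 on the other arrays, and of 0.716 for Gapdh, against −0.205 to 0.0333. The array shLFAR1+CCl4 replicate 3 lay among the NC+CCl4 arrays (34.8 to 48.8) on the first principal component of all genes, at 39.2, away from −6.80 and −9.66 for its own group. Whether this array is of another sample than its label says, or of an animal that responded differently, cannot be told apart from the files, and this touches every shLFAR1+CCl4 value. Counts of called members, and of members below 0, are given below with and without these arrays, and other values with all 12 arrays.

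After CCl4 with the control virus, some subunit genes were called lower, most of them in complex I, and none was called higher. In NC+CCl4 against NC, 17 of the 66 members were called lower (25.8%) and 0 higher, while over all genes 5.41% were called lower and 7.66% higher. The falls were small, to between 72.1% and 85.7% of the NC level. Of the 17, assigned by symbol, 12 were counted in complex I, 2 in complex II (Sdha and Sdhb), 1 in complex III (Uqcrc1) and 2 in complex IV (Cox6c and Cox4i1). The 12 include Ndufa4, which is now known as a subunit of complex IV. In whole liver, fewer cells of a type and less RNA per cell cannot be told apart.

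Shares, medians and means per complex follow the symbols, with Ndufa4 and its paralogue Ndufa4l2 in complex I. As a share of its measured members, 33.3% of complex I, 50% of complex II, 11.1% of complex III and 11.8% of complex IV were called lower. Differences between complexes were not tested. The direction ran wider than the calls: 54 of 66 members had a log2 difference below 0, with 30 of 36 in complex I, 4 of 4 in complex II, 7 of 9 in complex III and 13 of 17 in complex IV, against 58.5% of all genes. The median log2 difference was −0.16, −0.17, −0.14 and −0.13 for complexes I to IV, and −0.05 over all genes. All 17 called members were among the 57 members above the median level, and in that brighter part of the array 8.74% of genes were called lower. The shares of complexes III and IV lay near that 8.74%, and their calls are no result about those complexes. In 28 of 66 members every NC+CCl4 array lay below every NC array (15.8% of all genes), and in 2, Ndufc1 and Cox6b2, every one lay above (13.8%). Without NC+CCl4 replicate 1 the count of members called lower was 23 (5.83% of all genes), without shLFAR1+CCl4 replicate 3 it was 18 with Ndufc1 called higher (6.68% lower and 9.39% higher of all genes), and without both arrays it was 24 (8.1% of all genes). The members below 0 then numbered 59, 54 and 59, against 58.9%, 58.5% and 58.9% of all genes. Leaving out a different array gave fewer calls lower, among members and among all genes. Among these were 6 members without NC replicate 2 (2.54% of all genes), 7 without NC replicate 1 (2.41%), 9 without NC+CCl4 replicate 3 (3.14%), and 11 without any 1 of the 3 shLFAR1 arrays (4.28% to 4.46%). Without NC+CCl4 replicate 2, 12 members were called lower (5.25%) and Ndufc1 higher, while the genes called higher grew from 1393 to 1563. Centring each array on its median lowered the median of all genes from −0.05 to −0.19 and raised the members' count to 39, all lower, with 16.1% of all genes then called lower, and the calls over all genes moved from 1393 higher and 985 lower to 1154 higher and 2933 lower. Centring shifts every gene of an array alike, so the members' median minus that of all genes was −0.0939 on both scales by construction.

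**Figure D1:**
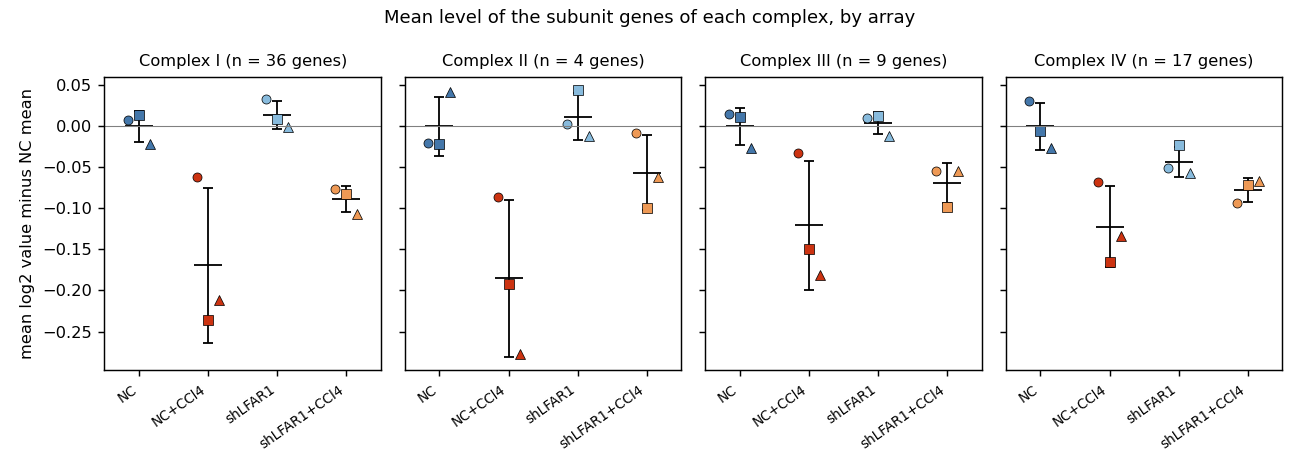
Mean over the subunit genes of each complex of the log2 value minus its NC mean (y axis), for each array (circle, square and triangle for replicates 1, 2 and 3) of the 4 groups (x axis), with a bar at the group mean and whiskers of 1 SD. In complexes I, III and IV all CCl4 arrays lie below all arrays of the oil group with the same virus, and NC+CCl4 replicate 1 is the highest array of its group in every complex.

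Averaged over the 36 genes of complex I, the log2 level relative to NC was −0.06, −0.24 and −0.21 in the NC+CCl4 arrays and −0.08, −0.08 and −0.11 in the shLFAR1+CCl4 arrays, with the oil arrays between −0.02 and 0.03. For complex II the corresponding values were −0.09, −0.19 and −0.28 and −0.0081, −0.10 and −0.06. Complex III gave −0.03, −0.15 and −0.18 with the control virus and −0.05, −0.10 and −0.05 with the knockdown virus. Complex IV gave −0.07, −0.17 and −0.13 and −0.09, −0.07 and −0.07. Its shLFAR1 oil arrays were already below NC, at −0.05, −0.02 and −0.06. Replicates 2 and 3 of NC+CCl4 were the lowest 2 of all 12 arrays for every complex, while replicate 1 was nearer to the shLFAR1+CCl4 arrays than to them. These means carry no test.

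**Figure D2:**
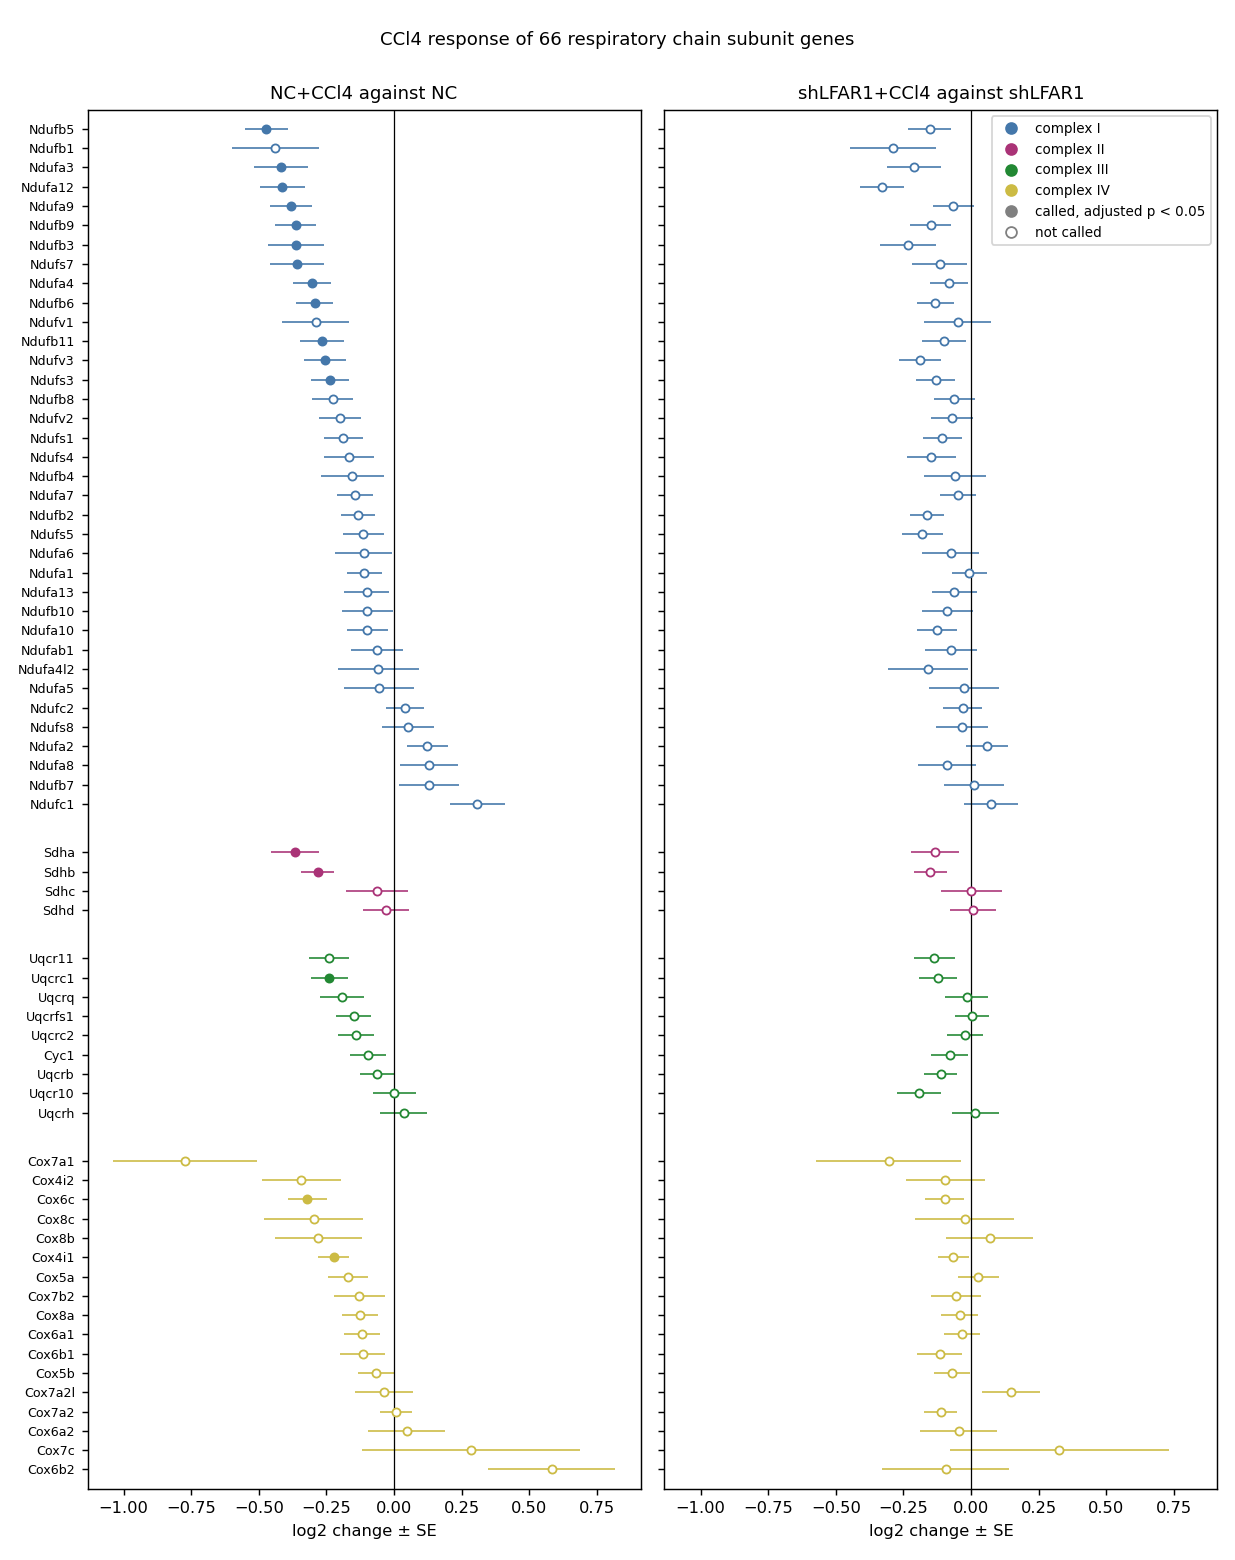
Log2 difference with its standard error (x axis) of each of the 66 members (y axis, grouped by complex and ordered by the left panel), for CCl4 against oil with the control virus (left) and with the knockdown virus (right); filled points passed an adjusted p of 0.05. On the left, 17 points are filled, all below 0, and on the right none is, with 55 of 66 below 0.

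In complex I, the called subunit with the largest fall was Ndufb5, an accessory subunit of the membrane arm, which houses the proton channels. Its log2 values were 11.55, 11.56 and 11.59 in NC, 11.15, 11.14 and 11.00 in NC+CCl4, 11.44, 11.51 and 11.49 in shLFAR1 and 11.44, 11.37 and 11.17 in shLFAR1+CCl4. Every NC+CCl4 array lay below every array of the other 3 groups, and the difference from NC was −0.47 ± 0.08 (SE, n = 3 per group, limma adjusted p = 0.00326), a fall to 72.1%. A second Ndufb5 probe set had a smaller difference of −0.25 ± 0.07, not called in a limma fit over all probe sets (adjusted p = 0.0549). Ndufa3, another accessory subunit of the membrane arm, had 12.03, 12.05 and 12.04 in NC, 11.54, 11.68 and 11.64 in NC+CCl4, 12.13, 11.97 and 12.02 in shLFAR1 and 11.96, 11.97 and 11.57 in shLFAR1+CCl4. All NC+CCl4 arrays were below all NC arrays, shLFAR1+CCl4 replicate 3 was as low as they were, and the fall was −0.42 ± 0.10 (adjusted p = 0.0166). The membrane arm accessory subunits Ndufb9, Ndufb3, Ndufb6 and Ndufb11 fell too, with differences of −0.36, −0.36, −0.29 and −0.27 (adjusted p from 0.00897 to 0.0476).

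In the peripheral arm, where NADH is oxidised and coenzyme Q reduced, Ndufa9, an accessory subunit next to the coenzyme Q site, had log2 values of 10.97, 10.98 and 10.94 in NC, 10.56, 10.70 and 10.48 in NC+CCl4, 10.85, 10.89 and 11.00 in shLFAR1 and 10.87, 10.85 and 10.84 in shLFAR1+CCl4. Its NC+CCl4 arrays were the lowest 3 of all 12, and the fall against NC was −0.38 ± 0.08 (adjusted p = 0.00714). Ndufa12, an accessory subunit of the same arm, had 10.93, 10.97 and 10.97 in NC, 10.58, 10.46 and 10.60 in NC+CCl4, 11.17, 10.94 and 10.93 in shLFAR1 and 10.66, 10.74 and 10.65 in shLFAR1+CCl4. Here all 6 CCl4 arrays lay below all 6 oil arrays, with a fall of −0.41 ± 0.08 in NC+CCl4 (adjusted p = 0.00692) and a probe set of a kind that can also bind related transcripts. Of the 6 measured core subunits of this arm, most of which carry the flavin or iron-sulfur centres, Ndufs7, which holds the last iron-sulfur cluster before coenzyme Q, fell by 0.36 on the log2 scale (adjusted p = 0.0355), and Ndufs3, which carries neither, fell by 0.24 (adjusted p = 0.0446). The small accessory subunit Ndufv3 fell by 0.26 (adjusted p = 0.046). The other 4 core subunits were not called, among them Ndufv1, the NADH-binding flavoprotein, with −0.29 ± 0.12 (adjusted p = 0.15), whose NC+CCl4 arrays were spread widely at 11.17, 10.69 and 10.59.

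Ndufa4, first assigned to complex I and now known as a subunit of complex IV, had log2 values of 12.38, 12.34 and 12.37 in NC, 12.13, 12.10 and 11.95 in NC+CCl4, 12.32, 12.32 and 12.34 in shLFAR1 and 12.32, 12.30 and 12.13 in shLFAR1+CCl4. Every NC+CCl4 array lay below every oil array, and the fall was −0.30 ± 0.07 (adjusted p = 0.0137). The complex I gene with the highest positive difference was Ndufc1, a small membrane arm subunit, at 11.19, 11.10 and 11.07 in NC and 11.58, 11.25 and 11.46 in NC+CCl4. The groups did not overlap, and the difference of 0.31 ± 0.10 missed the threshold (adjusted p = 0.0634). A second Ndufc1 probe set, with a mean of 10.55, did not rise and was at −0.0042. Ndufb1, an accessory subunit, had a difference of −0.44 ± 0.16 that was not called (adjusted p = 0.0939): NC+CCl4 replicate 1 at 6.14 lay within the NC range and replicates 2 and 3 at 5.57 and 5.48 below it. Ndufa4l2, a paralogue known as a hypoxia-induced gene, was dim and differed by −0.06 ± 0.15.

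Complex II, succinate dehydrogenase, has a flavoprotein (Sdha) and an iron-sulfur subunit (Sdhb) that face the matrix, and a pair of membrane anchors (Sdhc and Sdhd). Sdha had log2 values of 11.82, 11.81 and 11.87 in NC, 11.56, 11.55 and 11.29 in NC+CCl4, 11.85, 11.80 and 11.79 in shLFAR1 and 11.77, 11.75 and 11.52 in shLFAR1+CCl4. The NC+CCl4 arrays were all below the oil arrays, shLFAR1+CCl4 replicate 3 lay among them, and Sdha fell by 0.37 (SE 0.09, adjusted p = 0.0171). Sdhb had 11.89, 11.88 and 11.88 in NC, 11.66, 11.58 and 11.57 in NC+CCl4, 11.98, 11.94 and 11.91 in shLFAR1 and 11.83, 11.73 and 11.82 in shLFAR1+CCl4. This gene gave 3 separate levels without overlap: oil highest, shLFAR1+CCl4 between, and NC+CCl4 lowest, with a fall of −0.28 ± 0.06 in NC+CCl4 (adjusted p = 0.0104). The anchors Sdhc and Sdhd were not called, at −0.06 ± 0.11 and −0.03 ± 0.09, and their NC and NC+CCl4 arrays overlapped, with Sdhc at 10.50, 10.60 and 10.65 in NC and 10.80, 10.41 and 10.35 in NC+CCl4 and Sdhd at 10.97, 10.88 and 11.04 and 10.90, 10.96 and 10.95.

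In complex III, Uqcrc1, a core protein of the matrix side, had log2 values of 11.57, 11.56 and 11.47 in NC, 11.36, 11.32 and 11.20 in NC+CCl4, 11.54, 11.50 and 11.52 in shLFAR1 and 11.39, 11.34 and 11.47 in shLFAR1+CCl4. NC+CCl4 lay below both oil groups without overlap, and the fall was −0.24 ± 0.07 (adjusted p = 0.0399). It was no longer called when the replicate number entered the fit as a block. The small subunit Uqcr11 had a difference of −0.24 ± 0.08 and missed the threshold (adjusted p = 0.0549). The redox-active subunits were not called: the Rieske iron-sulfur protein Uqcrfs1 at −0.15 ± 0.06 (adjusted p = 0.153) and cytochrome c1, Cyc1, at −0.10 ± 0.07 (adjusted p = 0.399).

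In complex IV, the nuclear subunits Cox6c and Cox4i1 surround the mitochondrially encoded catalytic core. Cox6c had log2 values of 12.30, 12.36 and 12.25 in NC, 12.10, 11.97 and 11.89 in NC+CCl4, 12.23, 12.25 and 12.27 in shLFAR1 and 12.24, 12.15 and 12.06 in shLFAR1+CCl4. All its NC+CCl4 arrays were below all oil arrays, shLFAR1+CCl4 replicate 3 lay between NC+CCl4 replicates 1 and 2, and the fall was −0.32 ± 0.07 (adjusted p = 0.0123). For Cox4i1 the values were 12.74, 12.69 and 12.64 in NC, 12.51, 12.49 and 12.40 in NC+CCl4, 12.59, 12.66 and 12.59 in shLFAR1 and 12.57, 12.53 and 12.55 in shLFAR1+CCl4. Here all NC+CCl4 arrays were below all arrays of the other 3 groups, and the fall was −0.22 ± 0.06 (adjusted p = 0.023). Of the 5 ubiquitous isoforms that have a tissue-restricted partner, Cox4i1 was the called one, and Cox8a, Cox6a1, Cox6b1 and Cox7a2 had differences of −0.13, −0.12, −0.12 and 0.01. Second probe sets of Cox6a1, Cox6b1 and Cox7a2 were lower, at −0.27, −0.17 and −0.15, and none of them was called. Cox7a2l, which takes part in joining complexes III and IV into supercomplexes, was at −0.04 ± 0.11.

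Of the 8 isoforms known from other tissues or from hypoxia, 7 of complex IV and Ndufa4l2, all but Cox8c lay below the median gene. Limma and the methods' t-test called 0 of them. An unadjusted limma p under 0.05 was found for 3 of them and for 4927 of all 18193 genes. Cox7a1, the heart and muscle isoform, had the largest difference of any member, −0.77 ± 0.27 (adjusted p = 0.0792), from values of 5.01, 4.63 and 4.35 in NC and 4.54, 3.42 and 3.71 in NC+CCl4 that overlapped. Cox6b2, the testis isoform, differed by 0.58 ± 0.23 (adjusted p = 0.129), much of it from NC+CCl4 replicate 1, at 5.26 against 4.26 and 4.39 in the other NC+CCl4 arrays. Differences for the hypoxia-responsive Cox4i2, the testis isoforms Cox8c and Cox7b2 and the muscle isoforms Cox8b and Cox6a2 ran from −0.34 to 0.05. The chosen Cox7c probe set was dim and scattered, at 4.56, 3.87 and 3.54 in NC and 3.79, 3.66 and 5.38 in NC+CCl4, with a standard error of 0.40 on its difference.

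**Figure D3:**
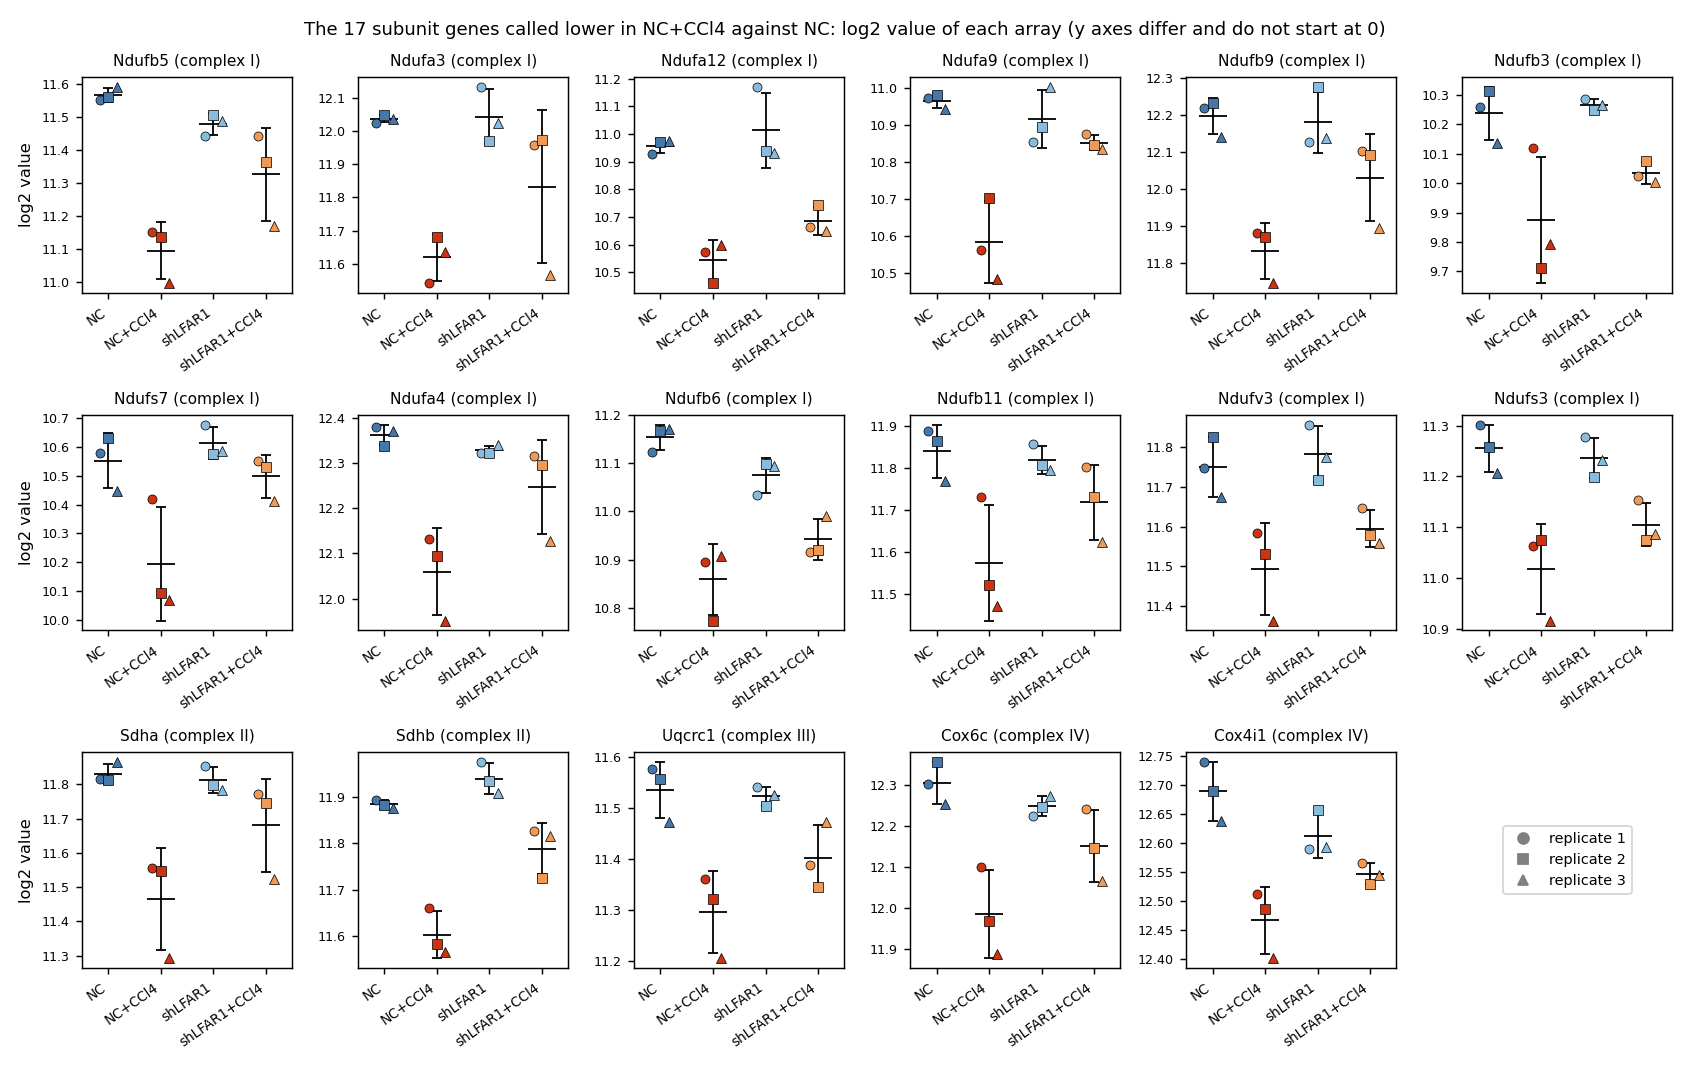
Log2 value (y axis, a different range in each panel) of the 17 members called lower in NC+CCl4 against NC, for each array (circle, square and triangle for replicates 1, 2 and 3) of the 4 groups (x axis), with a bar at the group mean and whiskers of 1 SD. In each panel the 3 NC+CCl4 arrays lie below the 3 NC arrays, and most shLFAR1+CCl4 arrays lie between.

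Other genes of the pathway were counted from lists written with earlier results of these data known. For ATP synthase, 17 of 18 genes were below 0, and the genes Atp5a1 (−0.22 ± 0.06, adjusted p = 0.0416) and Atp5e (−0.24 ± 0.07, adjusted p = 0.0412) of the catalytic sector and Atp5o of the stalk (−0.28 ± 0.07, adjusted p = 0.0224) fell. Its inhibitor Atpif1 rose (1.19 ± 0.24, adjusted p = 0.00712). Of 44 assembly factors 29 were below 0 and 3 fell: Surf1, which serves complex IV assembly (−0.52 ± 0.12, adjusted p = 0.0138), Ecsit, which serves complex I assembly (−0.42 ± 0.10, adjusted p = 0.0209), and Cox16, which serves complex IV assembly (−0.35 ± 0.10, adjusted p = 0.0349). Of 13 cytochrome c and coenzyme Q genes 8 were below 0 and 1 fell, Coq10a (−0.96 ± 0.23, adjusted p = 0.0149). Of 8 genes for other dehydrogenases that feed coenzyme Q 5 were below 0 and 1 fell, Etfa of the electron transfer flavoprotein (−0.30 ± 0.08, adjusted p = 0.0256). The TCA cycle list was mostly above 0, with 7 of 12 genes and a median log2 difference of 0.07. At an unadjusted limma p under 0.05, 3 were higher and 3 lower, against 2461 and 2466 of all 18193 genes. Its 1 called gene, Sucla2 of succinyl-CoA ligase, fell (−0.25 ± 0.07, adjusted p = 0.0399), a share of 8.33%, near the 8.74% of all genes above the median level.

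Of 76 mitochondrial ribosomal protein genes 55 were below 0 and 8 fell, the largest being Mrps18a, Mrpl14 and Mrps5 at −0.47, −0.46 and −0.46, and 0 rose. Among 15 regulators of mitochondrial biogenesis 11 were below 0 and 3 fell: Ppara, the fatty acid receptor (−0.69 ± 0.21, adjusted p = 0.0498), Gabpa, the DNA-binding subunit of GABP (−0.66 ± 0.15, adjusted p = 0.012), and Tfb2m, a mitochondrial transcription factor (−0.63 ± 0.10, adjusted p = 0.00207). The share called lower was thus between 6.82% and 20% in these lists, against 25.8% of the chain's subunits and 8.74% of all genes above the median level. Near that last share were the assembly factors (6.82%), cytochrome c and coenzyme Q (7.69%), mitochondrial ribosomal (10.5%) and other dehydrogenase genes (12.5%). Their calls are no result about those lists. The shares were not tested against each other. The 1 mitochondrially encoded gene with a named probe set, ND5, a core subunit of complex I, differed by −0.03 and was not called.

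**Figure D4:**
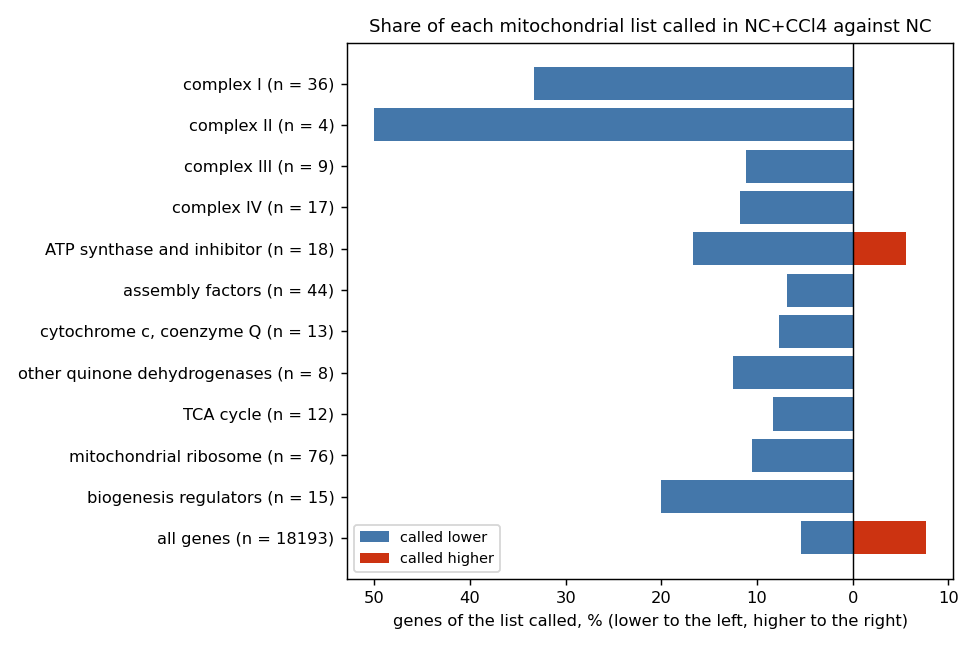
Share of the genes of each list (y axis, with the number measured) called lower (bars to the left) and higher (bars to the right) in NC+CCl4 against NC, in percent of the list. The 4 complexes have between 11.1% and 50% of their members called lower and 0 higher, against 5.41% and 7.66% of all genes. Of all genes above the median level, 8.74% were called lower, near the shares of complexes III and IV.

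Markers of other cells moved in the same arrays. Of 9 hepatocyte markers 2 fell, Pck1 (−1.55 ± 0.30, adjusted p = 0.00577) and Cyp2e1 (−0.49 ± 0.13, adjusted p = 0.0283), and 0 rose. Relative to NC their mean level was −0.30 to −0.11 in NC+CCl4, −0.17 to −0.0032 in shLFAR1+CCl4 and −0.05 to 0.07 in oil arrays. These means rest largely on Pck1 and Cyp2e1, since the median difference of the 9 markers was −0.04 and 4 lay above 0. Albumin, Alb, at 0.13 (adjusted p = 0.136), and transthyretin, Ttr, at 0.18 (adjusted p = 0.0643), were not called, with every NC+CCl4 array above every NC array. Of 8 stellate cell and myofibroblast markers 7 rose, with a mean level of 2.17 to 2.48 in NC+CCl4 and 0.60 to 2.05 in shLFAR1+CCl4. Of 6 macrophage markers 5 rose (2.26 to 3.02 and 0.83 to 2.69), of 5 lymphoid markers 2 rose (0.43 to 0.78 and 0.33 to 0.53), and of 4 adipose markers 1 rose (0.18 to 0.37 and 0.06 to 0.33). The lymphoid and adipose means rest on few genes. In NC+CCl4 against NC their median differences were 0.05 and −0.04, their largest 2.91 and 1.57, and 1 of 5 and 2 of 4 lay below 0. The 6 muscle markers were at −0.15 to −0.10 and −0.15 to 9.07e-05, with 0 called. All 5 cell cycle markers rose (1.78 to 4.61 and −0.05 to 2.67). Their part in the fall of the respiratory chain genes was not tested.

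With the knockdown virus the same comparison called no member. In shLFAR1+CCl4 against shLFAR1, limma called 0 of 66 members, and so did the methods' t-test at the study's thresholds and after Benjamini-Hochberg adjustment. An unadjusted limma p under 0.05 was found for 7 members, all lower, and for 937 lower and 1023 higher of 18193 genes. Over all genes 0.0824% were called lower and 0.324% higher, so few calls were made at all. The log2 differences were below 0 in 55 of 66 members, with 33 of 36 in complex I, 2 of 4 in complex II, 7 of 9 in complex III and 13 of 17 in complex IV, against 56.9% of all genes. Their median was −0.08, with −0.03 over all genes. In 24 members every shLFAR1+CCl4 array lay below every shLFAR1 array (11.7% of all genes), and in 1 every one lay above (8.41%).

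No array is shared with the first comparison, so the 17 genes called there were measured here in other mice, though not independently: same-numbered arrays of NC+CCl4 and shLFAR1+CCl4 deviated together over all genes (correlations of 0.126, 0.229 and 0.192). All 17 had differences below 0, between −0.33 and −0.06 with a median of −0.13, and of the other 49 members 38 did. Replicates 1, 2 and 3 of shLFAR1+CCl4 had 13, 16 and 17 of the 17 genes below all 3 shLFAR1 arrays. Those arrays had 32.4%, 30.7% and 42.4% of all genes below. Ndufa12 had the smallest p, with −0.33 ± 0.08 (adjusted p = 0.131), and its groups did not overlap. Ndufb2, a membrane arm accessory subunit, had −0.16 ± 0.06 (adjusted p = 0.366), and Sdhb had −0.15 ± 0.06 (adjusted p = 0.39). Without shLFAR1+CCl4 replicate 3, which stands apart, and also without both arrays that do, 0 members were called and 56 lay below 0, against 53.4% of all genes.

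Within CCl4-treated livers, 52 of 66 members had a positive difference with the knockdown virus, and none was called. In shLFAR1+CCl4 against NC+CCl4, limma and the methods' t-test called 0 of 66 members. An unadjusted limma p under 0.05 was found for 12 members, of which 11 were higher and Cox6b2 was lower. Such a p was found for 1171 higher and 1408 lower of all 18193 genes. Over all genes 0.176% were called higher and 0.115% lower. The members' median difference was 0.08, against 0.01 over all genes, of which 47.1% were below 0. In 12 members every shLFAR1+CCl4 array lay above every NC+CCl4 array (7.2% of all genes), and in 2, Uqcr10 and Cox7a2, every one lay below (5.11% of all genes). Without shLFAR1+CCl4 replicate 3 the members above 0 numbered 48, without NC+CCl4 replicate 1 they numbered 55, and without both 56. This comparison uses the same NC+CCl4 arrays as the first one, so a gene that those arrays happen to show low is low in both, and the direction here is no separate evidence for the 17 genes.

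The smallest p was that of Ndufa9, at 0.27 ± 0.08 (adjusted p = 0.136), where all shLFAR1+CCl4 arrays exceeded all NC+CCl4 arrays and lay within the range of the oil arrays or just below it. Sdhb followed with 0.19 ± 0.06 (adjusted p = 0.187) and Ndufs7 with 0.30 ± 0.10 (adjusted p = 0.193). For Ndufs7 the groups overlapped, with 10.42, 10.09 and 10.07 in NC+CCl4 and 10.55, 10.53 and 10.41 in shLFAR1+CCl4. These counts depended on single arrays. Without shLFAR1+CCl4 replicate 3, Ndufa3, Ndufa4 and Ndufb5 were called higher, while over all genes the calls grew to 2.4% higher and 4.9% lower. Without NC+CCl4 replicate 2, Ndufa9 was called higher, and the calls over all genes were not counted there. Without both arrays that stand apart, 11 members were called higher and 0 lower, against 3.64% of all genes higher and 4.83% lower: Ndufs7 of the complex I core, Ndufv1, the accessory subunits Ndufa3, Ndufb1, Ndufb5, Ndufb9 and Ndufb11, Ndufa4, Sdha, Uqcrq, a small subunit of complex III, and Cox6c. The array shLFAR1+CCl4 replicate 3 was singled out by its expression values, so the counts without it are a description.

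The difference between the CCl4 responses with the 2 viruses was tested as an interaction, and limma called 0 of 66 members. Over all genes 0.022% were called. An unadjusted limma p under 0.05 was found for 1731 of all 18193 genes and for 4 of 66 members. These 4 were Ndufa9 at 0.32 ± 0.11 (adjusted p = 0.392), Ndufb5 at 0.32 ± 0.11 (adjusted p = 0.408), Ndufa4 at 0.22 ± 0.10 and Cox6c at 0.22 ± 0.10, all in the direction of a smaller fall with the knockdown virus. So the calls in NC+CCl4 against NC and their absence in shLFAR1+CCl4 against shLFAR1 are not shown to differ for any member over the 12 arrays. Without both arrays that stand apart, Ndufb5 was called in the interaction, at 0.42 (adjusted p = 0.0336), which is 1 of 66 members where 1.74% of all genes were called higher and 2.53% lower.

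Without CCl4 no member was called between the viruses. In shLFAR1 against NC, limma and the methods' t-test called 0 of 66 members, and limma called 0% of all genes. An unadjusted limma p under 0.05 was found for 0 members and for 504 of 18193 genes. The members' median difference was 0.0076, and 37 members were above 0 and 29 below. In 3 members, Ndufb5, Ndufb6 and Cox8b, every shLFAR1 array lay below every NC array (4.76% of all genes), and in 2, Ndufa2 and Sdhb, every one lay above (6.01%). Without either or both of the arrays that stand apart, 0 members were called. The 3 smallest p belonged to Ndufc2, a small membrane arm subunit of complex I (0.10 ± 0.07), Cox8b (−0.22 ± 0.16) and Cox4i1 (−0.08 ± 0.06), each with an adjusted p of 1.00. A p that misses the threshold does not show that the groups are alike.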

How the data were processed

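Liver RNA of 12 mice, 3 per group, was hybridised to Affymetrix Mouse Genome 430 2.0 arrays. The values the authors deposited are log2 probe set levels, 1 column per array. Their summarization and normalization are not given in the sources used here, so shifts common to an array were examined by centring and by quantile normalization. Of 45101 probe sets, 64 were controls, 34945 carried a single symbol in the platform annotation, 932 several and 9160 none. Symbols used are those of that annotation. The members and the lists of related genes were chosen with earlier results of these data known. Named genes follow a rule by size, p and role, and the rest of the 17 called genes, Ndufc1, Ndufb1, Ndufv1, Uqcr11 and Cox7c were named after their values were seen.

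For 18193 genes the 4 group means were fitted with limma 3.58.1 in R 4.3.3, with an intensity trend, 8 residual degrees of freedom and Benjamini-Hochberg adjustment over all genes, two-sided. Precision is limited by having 3 arrays per group. The scripts were tested on simulated data. The methods' t-test used the study's fold threshold of 1.6 and p of 0.05. Figures were drawn with matplotlib 3.10.9.

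The labels number the replicates of each group 1 to 3. Between NC+CCl4 and shLFAR1+CCl4, same-numbered arrays deviated together over all genes (correlations of 0.126, 0.229 and 0.192), and the other pairs of groups did not have all 3 above 0.1. The main fit used no pairing. As an alternative for every comparison, the replicate number entered the fit as a block common to all 4 groups. A pairing of NC+CCl4 with shLFAR1+CCl4 alone was not fitted. No 2 arrays were identical.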

Additional observations from a re-analysis of the deposited data

Results flagged for a closer look

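Of the 139 probe sets that carry a single member symbol, 73 were not used above, and another 10 carry several symbols. In a fit over all probe sets other than controls, 9 of these 73 were called lower in NC+CCl4 against NC, 0 higher, and 57 had a difference below 0. In the same fit 12 of the 66 probe sets used above were called lower, fewer than the 17 of the fit over genes, and 3.52% of all 45037 probe sets were called lower, with 60.4% below 0. The 9 further probe sets called lower belong to genes already described and to Ndufa7. The 2 further probe sets of Ndufa12, a peripheral arm subunit, were at −0.56 and −0.49, beside −0.41 for the one used. For the membrane arm subunits, Ndufa3 had a second probe set at −0.41, Ndufb9 one at −0.36, and Ndufb11 had 2 at −0.30 and −0.35. Sdha, the flavoprotein of complex II, had a second one at −0.44. Ndufv1, which was not called through the probe set used, had a second one at −0.33. Ndufa7, an accessory subunit of the peripheral arm that was not called either, had one at −0.55. A probe set that carries several symbols, among them that of Ndufb2, was at −0.47, and no gene is named from it. None of these called probe sets moved against the one used, and probe sets of 1 gene share its RNA. Some other probe sets of called genes fell less or did not fall. The second one of Ndufb5 was at −0.25 and not called, beside −0.47 for the one used. It was at 0.05 in shLFAR1 against NC and 0.18 in the interaction, beside −0.09 and 0.32. Ndufb6 had one at 0.0039, beside −0.29 for the one used, and Cox6c one at −0.0066, beside −0.32. With the mean of all probe sets of each gene, 14 members were called lower, with 5.52% of all genes. Of these 14, 11 were among the 17, and Ndufb6 and Cox6c were not called.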

How the results depend on the processing

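In NC+CCl4 against NC, 17 members were called. The count was 39 with each array centred on its median, where 16.1% of all genes were called lower. It was 8 with the arrays of these groups alone (3.05% of all genes lower). By the methods' t-test it was 0 at the study's thresholds (1.76% of all genes lower). After Benjamini-Hochberg adjustment of that test it was 3, Ndufa3, Ndufb5 and Sdhb (0.44% of all genes lower). No called member fell by 1.6-fold. Leaving out 1 array gave 6 to 23, with 2.41% to 6.68% of all genes called lower. Ndufb5 and Ndufa9 were called in all 23 alternatives other than the methods' t-test, while Ndufs3, Ndufv3, Ndufb11, Uqcrc1 and Ndufs7 were lost in 14, 13, 12, 12 and 10. Ndufc1 was called higher in 4, and no call reversed. With array weights, Ndufa12 alone (1) was called lower in shLFAR1+CCl4 against shLFAR1. In shLFAR1+CCl4 against NC+CCl4, 2 members, Ndufb5 and Ndufs7, were then called higher, and leaving out 1 array gave 0 to 3. The calls over all genes were not counted with array weights in these comparisons. Without both arrays that stand apart, a setting chosen after seeing the data, the count in shLFAR1+CCl4 against NC+CCl4 was 11 and that of the interaction 1. The mean levels of complexes I to IV were also compared between CCl4 and oil with the same virus. These differences were −0.17, −0.19, −0.12 and −0.12 with the control virus and −0.10, −0.07, −0.07 and −0.03 with the knockdown virus. With centring they moved to −0.31, −0.32, −0.26 and −0.26 with the control virus and −0.15, −0.12, −0.12 and −0.0838 with the knockdown virus. Without probe sets that can bind several transcripts, the differences of complex III moved to −0.20 and −0.14, and that of complex IV with the knockdown virus to −0.0676. With the replicate number as a block, 17 members were called in NC+CCl4 against NC, with 5.66% of all genes called lower. Of these 17, 16 were shared with the fit without the block (Uqcrc1 was lost). In each of the other comparisons 0 members were called. The block spans all 4 groups, so a pairing of NC+CCl4 with shLFAR1+CCl4 alone was not tested. The smallest fall called was −0.22, and no smaller fall was called with 3 arrays per group.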
